A study of Mus musculus with 13 samples.

Results

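The genes described here are 40 genes of the cell cycle and of cell proliferation, measured by RNA sequencing in mouse brain with microglia present or depleted, after sham surgery or a transient stroke. They were taken by gene symbol from the deposited tables, and all 40 were found among the 21056 genes that the 4 tables share. By role they comprised 8 regulators of G1 and of entry into S phase, 12 genes of DNA replication and nucleotide supply, and 20 genes of G2 and mitosis. Of the 40, 36 passed the filter on low counts and were tested among 16940 genes, and Ccnb1, Bub1, Aurkb and Cenpf were below it.

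A dividing cell passes from G1 into S phase when cyclin D with CDK4 and cyclin E with CDK2 release the E2F transcription factors from the retinoblastoma protein. E2F factors then drive the genes that license and copy DNA, among them the MCM helicase, whereas the genes of mitosis rise later under B-MYB and FOXM1. Most neurons of the adult brain no longer divide, and the cells known to divide there are mainly oligodendrocyte precursors, neural progenitors of the subventricular zone and hippocampus, and glial, endothelial and immune cells after injury or loss of microglia.

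The 13 libraries came from the brains of male mice carrying CX3CR1creER/+ and R26iDTR/+, and every group, controls included, carried both alleles and had received 2 doses of tamoxifen by gavage at 7 to 8 weeks of age. The first allele places an inducible Cre recombinase in the Cx3cr1 locus, whose gene is expressed by microglia and also by other mononuclear phagocytes, and the second makes cells with Cre activity sensitive to diphtheria toxin. After 30 days the depleted mice (DE) received 50 ng of toxin per g of body weight on 3 days, and the control mice (CON) received normal saline. Surgery was either a sham operation or a filament occlusion of the right middle cerebral artery for 60 min followed by reperfusion (tMCAO), which models a transient ischaemic stroke. The groups, whose titles in the labels also carry MG for microglia, were sham_CON with 3 libraries, sham_DE with 4, tMCAO_CON with 4 and tMCAO_DE with 2. The labels give an age of 6 to 8 weeks at surgery, which is hard to place after tamoxifen at 7 to 8 weeks and a further 30 days, and neither the time of sampling nor the part of the brain is stated. The labels contradict themselves on tMCAO_CON 4, whose treatment entry names saline and a sham operation. It was placed by its title, and the calls that end without it are named with each comparison. Animal codes differ for every library, so the libraries were taken as separate mice.

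Libraries held 16239763 to 22080367 counts. Neuronal transcripts summed to 7383 to 9366 CPM (counts scaled to a common library size). The summed level of 12 microglial markers ranged from 317 to 357 CPM among sham_CON and 352 to 446 CPM among tMCAO_CON libraries, against 37.3 to 76.5 CPM among sham_DE and 46.6 to 51.5 CPM among tMCAO_DE libraries. All 12 of these markers fell in both depletion comparisons. Several libraries stood apart from their group in transcripts of other sources. Neutrophil and bone marrow precursor markers summed to 35.6 CPM in sham_CON 2, 36.7 CPM in sham_DE 3 and 14.4 CPM in tMCAO_DE 1, and to 1.29 to 3.49 CPM in the other libraries. A set of 4 gut and pancreas transcripts (Muc2, Gucy2c, Duox2, Ctrb1) summed to 21.9 to 41.1 CPM in sham_DE 2 to 4 and both tMCAO_DE libraries, and to 0.376 to 2.92 CPM in sham_DE 1 and every control library.

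The 40 genes differed widely in depth, and this set how firmly each could be measured. Only 9 of them, Cdk4, Ccnd1, Ccnd2, Ccne1, Mcm4, Mcm7, Pcna, Rrm1 and E2f1, had at least 100 counts in every library, and 24 had at least 10. Cdk1, Ccnb1, Bub1, Aurkb and Cenpf averaged under 10 counts in every group, so they are given as counts without a fold change. Counting error is only part of the spread between animals, and intervals or floors would cover that part alone.

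**Figure D1:**
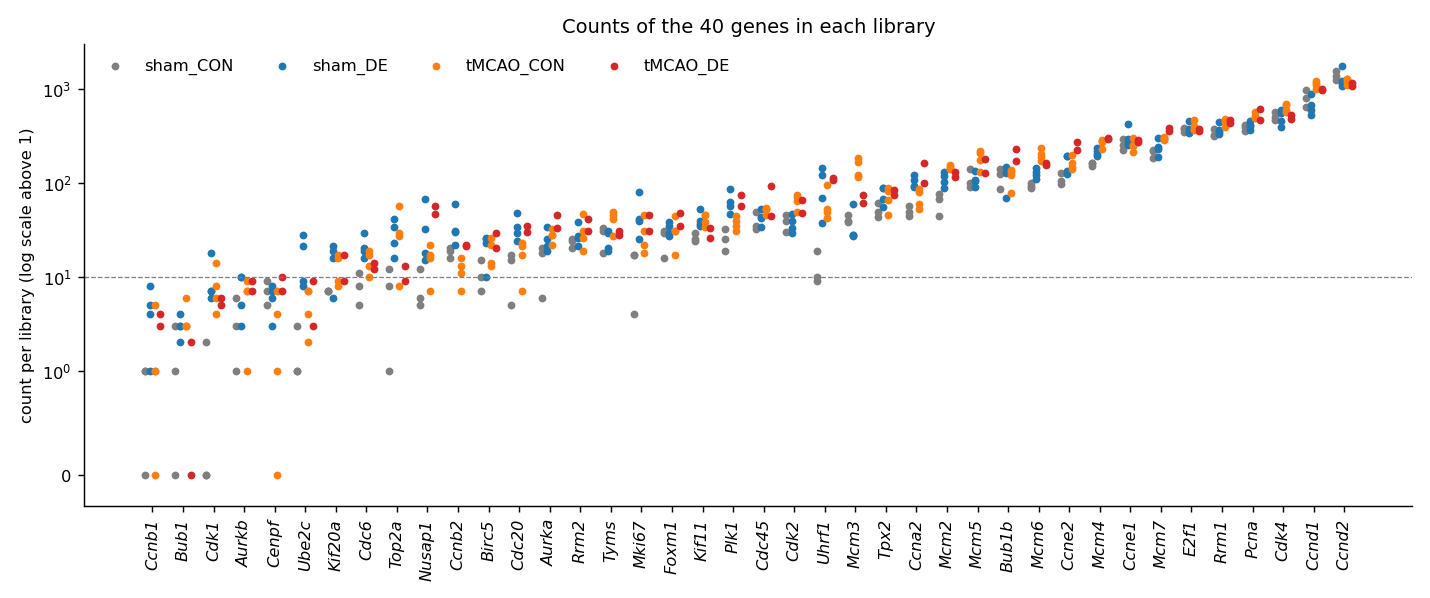
Counts of the 40 genes in each library, on a vertical axis that is logarithmic above 1 count, with genes ordered by their median and 1 point per library coloured by group. The dashed line marks 10 counts, and 5 of the genes towards the left, Cdk1 among them, averaged less than that in every group.

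Per length of transcript, the G1 genes were the most abundant and the mitotic genes the least. In the deposited FPKM values, which scale counts to gene length, cyclin D1 (Ccnd1) was at 10.3 ± 1.64 FPKM (SD, n = 3) in sham_CON, followed by cyclin D2 (Ccnd2) at 6.13 ± 0.554, the polymerase clamp Pcna at 6.04 ± 0.0952, the ribonucleotide reductase subunit Rrm1 at 4.56 ± 0.205, Cdk4 at 4.32 ± 0.189 and the transcription factor E2f1 at 4.3 ± 0.427. The levels of Ccnd2 and Pcna differed by less than the SD of Ccnd2, and those of Cdk4 and E2f1 by less than the SD of either. At the other end, Mki67, which encodes the proliferation antigen Ki-67, was at 0.069 ± 0.0416 FPKM, and topoisomerase II alpha (Top2a) was at 0.0354 ± 0.0273 FPKM. Among the mitotic genes Bub1b, which encodes the spindle checkpoint protein BUBR1, had the highest level in sham_CON, 1.33 ± 0.386 FPKM, whereas its relative Bub1 was at 0.0137 ± 0.0159 FPKM.

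The summed levels of the 3 role groups did not follow the 4 conditions in the same way. Genes with a high CPM weigh most in such sums. Summed over its 20 genes, the mitotic group was at 20.3 to 27.2 CPM in sham_CON but 36.9 to 41.1 CPM in sham_DE, with no overlap. It was at 24.6 to 37.6 CPM in tMCAO_CON and 38.8 to 42.8 CPM in tMCAO_DE, so both depleted groups lay above both control groups apart from tMCAO_CON 3, whose 37.6 CPM was within the range of sham_DE. Between the occluded groups much of the difference in this sum came from Bub1b and Ccna2. Bub1b was at 4.25 to 7.65 CPM in tMCAO_CON and 8.54 to 11.5 CPM in tMCAO_DE. It was not called there, and it overlapped between the sham groups. Ccna2 was at 3.12 to 4.08 CPM in tMCAO_CON and 5.02 to 8.25 CPM in tMCAO_DE. The 12 replication genes summed to 81.7 to 86.2 CPM in sham_CON, 88.3 to 97.9 CPM in sham_DE, 102 to 143 CPM in tMCAO_CON and 110.0 to 122 CPM in tMCAO_DE. Here the occluded groups were the high ones, and every occluded library lay above every sham library. The 8 G1 and S entry genes summed to 184 to 207, 176 to 203, 195 to 228 and 182 to 187 CPM in the same order, and these ranges overlapped between sham_CON and each of the other groups. Ccnd1 and Ccnd2 made up most of this sum and differed in opposite directions between sham_CON and tMCAO_CON. Ccnd1 was at 37.9 to 52.5 and 53.6 to 71.7 CPM, and Ccnd2 at 73.9 to 87.7 and 60.3 to 68.8 CPM. In that comparison 6 of the 8 genes had a positive log2 fold change, so the overlap of the sums does not describe each gene. In bulk tissue a change in the number of cells of a type and a change in RNA per cell cannot be told apart.

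**Figure D2:**
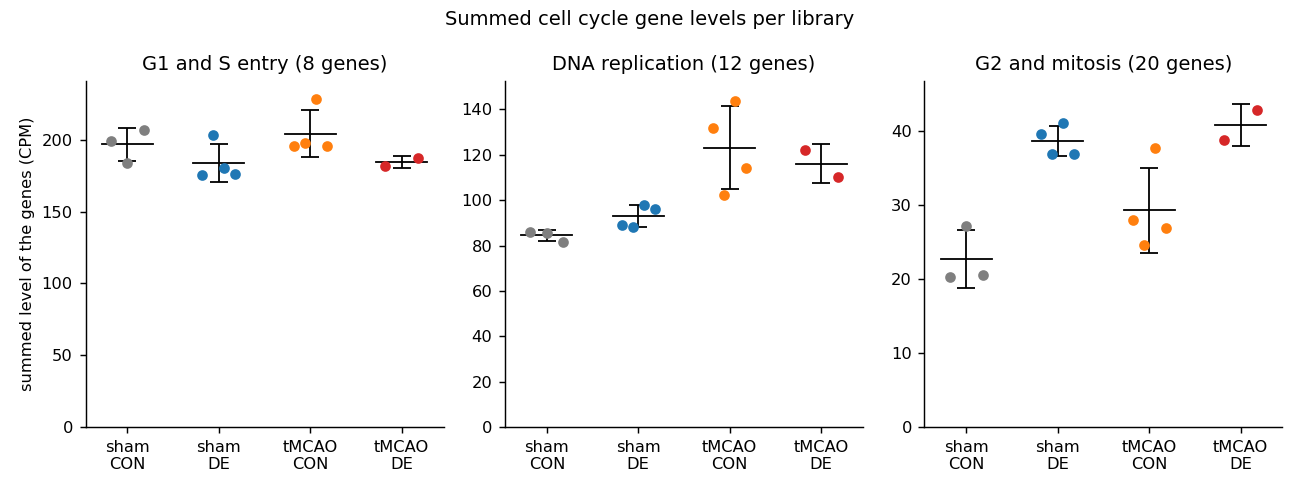
Summed level in CPM of the genes of each role in every library, with 1 point per library and bars for the mean and SD of each group. The mitotic sums of sham_DE, 36.9 to 41.1 CPM, lie above those of sham_CON, 20.3 to 27.2 CPM, and the replication sums of both occluded groups, from 102 CPM upwards, lie above those of both sham groups.

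The promoters of the mitotic and the replication genes carried different short motifs, and 4 stretches are printed to show them, from 3 mitotic genes called with depletion and from 1 helicase gene called with occlusion, chosen after their values were seen. RefSeq (GRCm38.p6) gave a window of 300 bases, from 250 before to 50 after the start of transcription, for 31 of the 40 genes; Ccna2, Ccnd1, Ccnd2, Ccne2, Mcm4, Aurkb, Kif20a, Tpx2 and Foxm1 had none. Some genes, Mcm7 and Uhrf1 among them, had several windows, and all 27025 genes together had 32851. A gene was counted once, as holding a motif if any of its windows did. The letters TTTGAA are known as the cell cycle genes homology region (CHR) and are bound by the complexes that hold B-MYB and FOXM1. They were found on either strand in 11 of 15 mitotic genes (73.3%), 2 of 11 replication genes (18.2%) and none of 5 G1 and S entry genes. The share over all 27025 genes was 20.2%. An E2F motif was searched as TTTGGCGC, TTTCCCGC, TTTCGCGC or TTTGCCGC on both strands. It was found in 5 of 11 replication genes (45.5%) and 1 of 15 mitotic genes (6.67%), Cdk1, against 2.6% of all genes. The CCAAT box, bound by NF-Y, was found in 24 of 31 genes (77.4%) against 41.1% of all genes. A match is a description of the letters and not a site of binding. The stretches run 5′ to 3′ from 150 to 10 bases before the RefSeq start, with CHR, E2F and CCAAT motifs in capitals. On the other strand they read TTCAAA for the CHR and ATTGG for the CCAAT box, and in Mcm6 the first run of capitals holds 2 overlapping E2F motifs, 1 on each strand. They lie at chr10:69352922-69353062 (minus strand), chr7:135716389-135716529 (minus strand), chr2:164769779-164769919 (plus strand) and chr1:128359715-128359855 (minus strand). In GENCODE M21, annotated exons cover the last 17 bases of the Cdk1 stretch and the last 22 of the Ube2c stretch. These bases hold the last CHR of Cdk1 and the CHR of Ube2c.
Cdk1: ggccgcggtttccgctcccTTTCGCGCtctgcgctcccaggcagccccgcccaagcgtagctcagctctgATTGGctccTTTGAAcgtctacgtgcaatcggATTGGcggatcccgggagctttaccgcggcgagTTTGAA
Mki67: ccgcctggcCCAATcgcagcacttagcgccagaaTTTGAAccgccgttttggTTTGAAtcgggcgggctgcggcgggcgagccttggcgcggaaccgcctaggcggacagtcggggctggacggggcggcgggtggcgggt
Ube2c: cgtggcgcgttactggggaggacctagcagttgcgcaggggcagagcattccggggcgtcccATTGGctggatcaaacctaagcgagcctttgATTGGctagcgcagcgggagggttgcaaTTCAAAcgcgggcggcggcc
Mcm6: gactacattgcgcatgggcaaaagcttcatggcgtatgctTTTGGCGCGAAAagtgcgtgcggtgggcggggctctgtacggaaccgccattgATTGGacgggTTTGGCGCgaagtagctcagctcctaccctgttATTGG

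Depletion of microglia without a stroke was followed by higher levels of several of the listed mitotic genes. Comparing sham_DE with sham_CON, 10 of the 36 tested genes rose and none fell (27.8%), where 11.3% of all genes tested changed by the same rule, an edgeR adjusted p below 0.05, 6.85% upwards and 4.49% downwards. Of the 10, 6 were mitotic genes (Mki67, Cdk1, Ccna2, Plk1, Nusap1, Ube2c), 3 were replication genes (Cdc6, Mcm2, Mcm4), and the last was Uhrf1, listed with the genes of S phase entry. The median log2 fold change over the tested genes was 1.01 for the mitotic, 0.10 for the replication and -0.07 for the G1 and S entry genes, against 0.00 for all genes, and 15 of the 16 tested mitotic genes had a positive value. The groups did not overlap for 15 of the 36 genes, all higher in sham_DE, where 12% of all genes were higher and 10.9% lower without overlap. At an unadjusted p below 0.05 edgeR gave 18 of the 36 genes, with Ccnd1 alone lower, against 28.9% of all genes, and neither DESeq2 nor limma called any of the 36 lower.

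Mki67 (chr7:135689784-135716361, minus strand, GRCm38), whose protein coats chromosomes in dividing cells, was at 0.912, 1.02 and 0.226 CPM across sham_CON, 4.27, 1.77, 2.5 and 1.43 across sham_DE, 1.71, 1.05, 2.65 and 0.873 across tMCAO_CON, and 2.26 and 1.57 across tMCAO_DE. All 4 sham_DE libraries were above all 3 sham_CON libraries, and sham_DE 1 was the highest of the 13. The log2 fold change between the sham groups was 1.79 ± 0.53 (SE), with an edgeR adjusted p of 0.047. Top2a, which untangles DNA before chromosomes separate, was at 0.644, 0.479 and 0.0565 CPM across sham_CON, 2.22, 1.55, 1.4 and 0.912 across sham_DE, 1.6, 0.384, 3.35 and 1.31 across tMCAO_CON, and 0.653 and 0.456 across tMCAO_DE. It did not overlap between the sham groups, but its log2 fold change of 1.93 ± 0.69 (SE) did not pass (edgeR adjusted p = 0.087). Its 2 tMCAO_DE values were close to the range of sham_CON, and the tMCAO_CON libraries were widely spread, replicate 3 being the highest of all 13 and replicate 2 lying among the sham_CON values.

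Cdk1, the kinase that starts mitosis, had 2, 0 and 0 counts across sham_CON, 18, 7, 6 and 7 across sham_DE, 8, 4, 14 and 6 across tMCAO_CON, and 5 and 6 across tMCAO_DE. It was thus nearly absent from sham_CON and present in each library of the other groups, and both comparisons with sham_CON passed (edgeR adjusted p = 0.028 for sham_DE and 0.046 for tMCAO_CON). Its partner cyclin B1 (Ccnb1) had 1, 1 and 0 counts across sham_CON, 5, 8, 4 and 1 across sham_DE, 5, 1, 1 and 0 across tMCAO_CON, and 4 and 3 across tMCAO_DE, too few for a test. Aurkb, a kinase of the chromosomal passenger complex, had 1 to 10 counts in the 13 libraries, the checkpoint kinase Bub1 had 0 to 6, and the kinetochore protein Cenpf had 0 to 10. Cyclin B2 (Ccnb2) was deep enough to be tested and ranged from 0.904 to 1.20 CPM in sham_CON but from 1.34 to 2.73 CPM in sham_DE. These ranges did not overlap, and the log2 fold change was 0.85 ± 0.33 (SE) with an edgeR adjusted p of 0.11.

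Cyclin A2 (Ccna2), which acts with CDK2 and CDK1 from S phase into mitosis, was at 2.63, 3.35 and 2.49 CPM across sham_CON, 4.97, 5.5, 5.55 and 6.04 across sham_DE, 3.26, 4.08, 3.12 and 3.88 across tMCAO_CON, and 5.02 and 8.25 across tMCAO_DE. Both depleted groups lay above both control groups without overlap, and the difference between the sham groups was 0.97 ± 0.19 (SE, log2 scale, edgeR adjusted p = 0.011). Plk1 (chr7:122159439-122169873, plus strand), the polo-like kinase that drives spindle assembly, was at 1.72, 1.14 and 1.41 CPM across sham_CON, 2.54, 3.91, 3.41 and 3.59 across sham_DE, 1.71, 1.68, 2.29 and 2.13 across tMCAO_CON, and 3.72 and 2.84 across tMCAO_DE. Its order was the same, with every depleted library above every control library, and it rose by 1.24 ± 0.23 (SE, log2 scale, edgeR adjusted p = 0.0078) between the sham groups.

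Nusap1, a spindle protein, was at 0.268, 0.718 and 0.339 CPM across sham_CON, 0.811, 3.09, 1.1 and 1.82 across sham_DE, 0.386, 0.815, 0.941 and 1.07 across tMCAO_CON, and 2.36 and 2.89 across tMCAO_DE. The sham groups did not overlap, although sham_DE 1 at 0.811 CPM was close to sham_CON 2 at 0.718 CPM, and the log2 fold change was 1.97 ± 0.52 (SE, edgeR adjusted p = 0.030). Ube2c (chr2:164769898-164778822, plus strand), the ubiquitin-conjugating enzyme of the anaphase-promoting complex, had 1, 1 and 3 counts across sham_CON, 8, 28, 21 and 9 across sham_DE, 4, 2, 7 and 7 across tMCAO_CON, and 3 and 9 across tMCAO_DE. Its counts in sham_DE exceeded those of sham_CON without overlap and those of the occluded groups in part, and the fitted log2 fold change of 3.13 ± 0.70 (SE, edgeR adjusted p = 0.017) rests on the 1 to 3 counts of each sham_CON library. Ube2c shares 592 exonic bases with Tnnc2 on the opposite strand, a muscle gene with 0 to 54 counts per library whose highest value was in tMCAO_CON 2, where Ube2c had 2 counts.

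Uhrf1 (chr17:56303321-56323486, plus strand), which recruits the maintenance DNA methyltransferase to newly copied DNA, showed the smallest p of the 36 genes in this comparison. It was at 1.02, 0.538 and 0.565 CPM across sham_CON, 2.0, 6.5, 4.21 and 6.84 across sham_DE, 2.32, 2.35, 5.53 and 2.52 across tMCAO_CON, and 5.42 and 5.72 across tMCAO_DE. All 10 libraries outside sham_CON were above its highest value, and the log2 fold change in sham_DE was 2.77 ± 0.48 (SE, edgeR adjusted p = 0.0064). Within sham_DE, replicate 1 was the lowest in Uhrf1 and Nusap1 but the highest in Mki67, Top2a and Cdk1. Cdc6, which loads the MCM helicase at origins, was at 0.268, 0.479 and 0.621 CPM across sham_CON, 0.865, 1.32, 1.22 and 1.08 across sham_DE, 1.05, 0.48, 1.0 and 0.631 across tMCAO_CON, and 0.603 and 0.709 across tMCAO_DE. The sham groups were apart, with a log2 fold change of 1.29 ± 0.37 (SE, edgeR adjusted p = 0.041), tMCAO_CON overlapped both of them, and tMCAO_DE overlapped sham_CON.

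Other mitotic genes did not pass between the sham groups. Cdc20, the activator of the anaphase-promoting complex, had a log2 fold change of 1.36 ± 0.44 (SE, edgeR adjusted p = 0.063), the kinesin motor Kif11 0.57 ± 0.21 (0.095), the kinesin Kif20a 1.04 ± 0.45 (0.14) and the apoptosis inhibitor and mitotic protein survivin (Birc5) 0.90 ± 0.39 (0.15). The values of Aurka, Tpx2 and Foxm1 were 0.69, 0.49 and 0.27, and that of Bub1b was -0.02. In sham_DE and sham_CON Bub1b overlapped throughout, at 3.14 to 8.96 and 4.61 to 8.38 CPM.

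Among further genes of the same pathways, 4 of 47 tested mitotic genes (Melk, Kif15, Ndc80, Casc5; 8.51%) and 3 of 29 replication genes (Mcm10, Gins1, Cdt1; 10.3%) rose and none fell, shares near the 6.85% of all genes that rose. Their medians were 0.27 and 0.19, against 0.00 for all genes. Kif15, Ndc80, Casc5 and Gins1 had under 10 counts in every sham_CON library and were tested only through libraries where they are higher, so these counts and medians are descriptions. Melk, a kinase of dividing cells, was at 0.912, 0.957 and 0.904 CPM across sham_CON and 1.95, 2.73, 1.89 and 2.28 across sham_DE, a log2 fold change of 1.26 ± 0.23 (SE, edgeR adjusted p = 0.0081). The helicase cofactor Mcm10 was at 0.805, 0.838 and 1.19 CPM across sham_CON and 1.78, 3.68, 3.17 and 3.14 across sham_DE, a log2 fold change of 1.64 ± 0.28 (SE, edgeR adjusted p = 0.0060). Neither gene overlapped between the sham groups. Among CDK inhibitors and other brakes, 1 of 13 tested genes rose (Cdkn1a, 7.69%) and 2 fell (Ccng1 and Btg1, 15.4%, against 4.49% of all genes). Cdkn1a, which encodes the inhibitor p21, was at 18.3, 17 and 11.7 CPM across sham_CON, 24.4, 32.8, 41.2 and 68 across sham_DE, 61.4, 73.2, 49.1 and 51.2 across tMCAO_CON, and 131 and 157 across tMCAO_DE. It was lowest in sham_CON and highest in tMCAO_DE with overlap between sham_DE and tMCAO_CON alone, and its log2 fold change between the sham groups was 1.41 ± 0.29 (SE, edgeR adjusted p = 0.013). Among other G1 genes the phosphatase Cdc25a rose (0.45 ± 0.13, SE, edgeR adjusted p = 0.041) and E2f6 and Mycn fell, 3 of 19 tested.

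Of the called genes Cdk1 and Ube2c had no sham_CON library with 10 counts, and Nusap1 and Cdc6 had 1. These 4 passed the low-count filter only through other groups, where they are higher, so the count of called genes and the medians over tested genes describe the list and support nothing further. The rise of Plk1 and Uhrf1 between the sham groups passed with any of the 13 libraries left out, with adjusted p-values up to 0.036. The calls of the other genes were less firm. That of Ccna2 ended without sham_CON 3 (0.054). That of Nusap1 ended without sham_CON 1 or 3 or sham_DE 2 or 4 (up to 0.11). That of Mcm2 ended without sham_CON 2 or 3 or sham_DE 2, 3 or 4 (up to 0.083). That of Ube2c ended without sham_CON 1 or 2 (up to 0.070). Without sham_DE 2 or 3, Ube2c fell below the low-count filter and was not tested. That of Cdk1 ended without sham_CON 2 or 3 or sham_DE 4 (up to 0.095). Without sham_DE 1 or tMCAO_CON 3, Cdk1 fell below the filter and was not tested. Those of Cdc6 and Mcm4 ended without any library other than sham_DE 1 and tMCAO_CON 1, 2 and 3 (up to 0.15 and 0.12), and that of Mki67 without any other than tMCAO_CON 3 and 4 (up to 0.15). Under limma those of Mki67, Cdk1 and Cdc6 ended (0.0575, 0.0508 and 0.0729), and with no low-count filter those of Mki67, Cdc6 and Mcm4 did (0.0512, 0.0508 and 0.0525). With sham_CON 2 and sham_DE 3, the pair high in neutrophil markers, both left out, 0 of 35 tested genes passed in edgeR (16 at an unadjusted p below 0.05), and Uhrf1 and Plk1 were at adjusted p = 0.055 and 0.064. The calls over all genes dropped from 1921 to 219 in that fit of 11 libraries. The summed level of 10 markers of border and infiltrating macrophages moved with the mitotic genes, with 6 of 9 tested markers higher. It was at 6.65 to 10.1 CPM in sham_CON against 32.3 to 42.5 CPM in sham_DE. The gut and pancreas transcripts moved likewise in 3 of the 4 sham_DE libraries. Gfap also rose, but 6 of the 8 astrocyte markers had a negative log2 fold change, with a median of -0.17. The summed astrocyte level was at least 4121 CPM in each sham_CON library and at most 3993 CPM in sham_DE. Slc1a2 made up most of that sum, with 57340 of 77383 counts in sham_CON 1, and had 10747 counts in sham_DE 2. None of the 8 astrocyte markers was called lower. Markers of oligodendrocyte precursors moved against the mitotic genes, at 556 to 605 (sham_CON) and 418 to 484 CPM (sham_DE). Their part in the result was not tested.

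**Figure D3:**
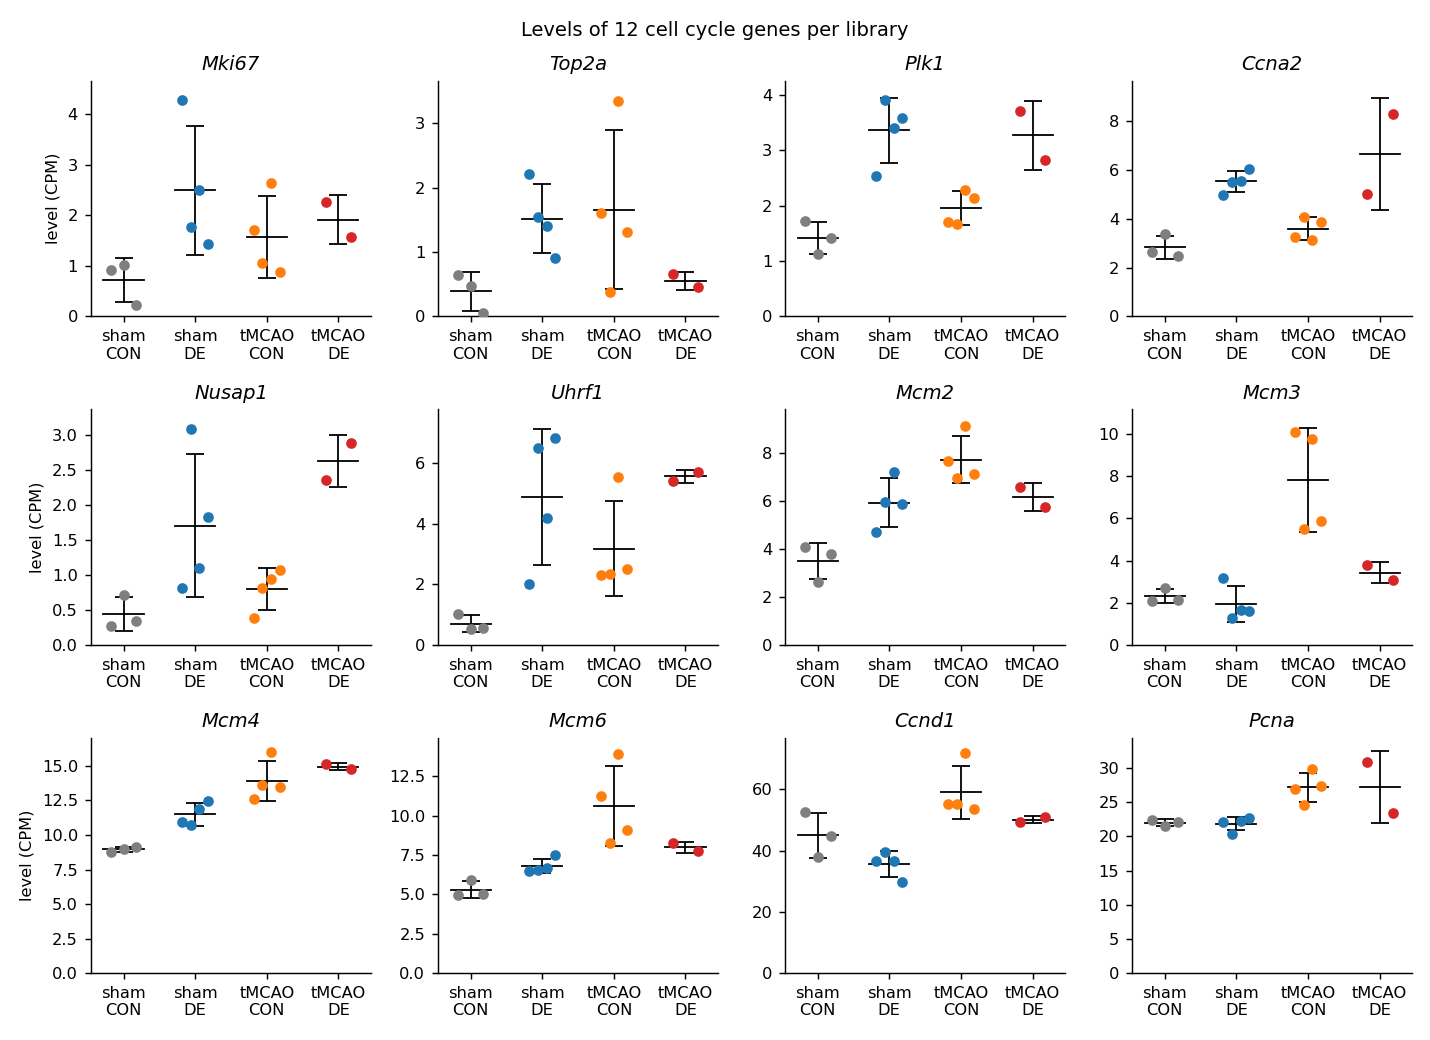
Levels in CPM of 12 of the genes in each library, with 1 point per library and bars for the mean and SD of each group. Plk1 and Ccna2 are higher in both depleted groups, Mcm2, Mcm4 and Mcm6 are lowest in sham_CON, and the 4 tMCAO_CON values of Mcm3, 5.51 to 10.1 CPM, lie above all others.

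Occlusion in mice with microglia was followed by higher levels of the MCM helicase genes. Comparing tMCAO_CON with sham_CON, which also serves as the control of the depletion comparison above, 6 of the 36 tested genes rose and none fell (16.7%), where 8.44% of all genes changed, 5.14% upwards and 3.31% downwards. They were Mcm2, Mcm3, Mcm4 and Mcm6, 4 of the 6 subunits of the helicase that opens DNA for copying, with Uhrf1 and Cdk1. All 12 replication genes had a positive log2 fold change, with a median of 0.55, against 0.62 for the mitotic genes, 0.30 for the G1 and S entry genes and 0.02 for all genes. Cdk1, Ube2c and Kif20a had under 10 counts in every sham_CON library and were tested only through other groups, where they are higher. The count of called genes and the medians are therefore descriptions. Groups did not overlap for 14 genes that were higher and for Ccnd2, which was lower, where 13.1% and 10.5% of all genes did so. At an unadjusted p below 0.05 edgeR gave 17 genes, with Ccnd2 alone lower, against 23.8% of all genes, and DESeq2 called Ccnd2 lower and limma none.

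Mcm2 (chr6:88883474-88898780, minus strand) was at 4.08, 2.63 and 3.78 CPM across sham_CON, 4.7, 5.96, 7.19 and 5.87 across sham_DE, 7.67, 6.95, 9.12 and 7.13 across tMCAO_CON, and 6.58 and 5.77 across tMCAO_DE. Every library of the other groups exceeded all of sham_CON, and tMCAO_CON rose by 1.14 ± 0.18 (SE, log2 scale, edgeR adjusted p = 0.0030), while sham_DE rose by 0.76 ± 0.19 (0.024). Mcm3 (chr1:20802968-20820312, minus strand) was at 2.09, 2.69 and 2.15 CPM across sham_CON, 3.19, 1.27, 1.65 and 1.6 across sham_DE, 10.1, 5.51, 9.76 and 5.87 across tMCAO_CON, and 3.77 and 3.09 across tMCAO_DE. Unlike Mcm2, it overlapped between the sham groups. All 4 tMCAO_CON libraries were above the 9 others, and the log2 fold change on occlusion with microglia was 1.75 ± 0.31 (SE, edgeR adjusted p = 0.0051). Replicates 1 and 3 of tMCAO_CON, at 10.1 and 9.76 CPM, were well above replicates 2 and 4.

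Mcm4 (chr16:15623897-15637400, minus strand) was at 8.8, 8.97 and 9.15 CPM across sham_CON, 10.9, 10.7, 11.9 and 12.5 across sham_DE, 12.6, 13.6, 16 and 13.4 across tMCAO_CON, and 15.1 and 14.8 across tMCAO_DE. Its groups were tight and in steps, with sham_CON lowest, sham_DE next and the occluded groups highest and overlapping each other, and the change on occlusion with microglia was 0.63 ± 0.10 (SE, log2 scale, edgeR adjusted p = 0.0027). Mcm6 (chr1:128331590-128359664, minus strand), whose promoter is printed above, was at 4.94, 5.92 and 5.03 CPM across sham_CON, 6.49, 6.55, 6.7 and 7.47 across sham_DE, 11.3, 8.25, 13.9 and 9.07 across tMCAO_CON, and 8.24 and 7.75 across tMCAO_DE. Its sham_CON values were below those of every other group, and it rose by 1.0 ± 0.17 (SE, log2 scale, edgeR adjusted p = 0.0037) with occlusion.

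The other 2 helicase subunits did not pass. Mcm5 was at 7.56, 5.98 and 5.14 CPM across sham_CON, 7.14, 4.09, 6.52 and 5.93 across sham_DE, 11.9, 6.19, 12.1 and 8.39 across tMCAO_CON, and 9.04 and 6.38 across tMCAO_DE. Its groups overlapped, in that tMCAO_CON 2 was within the sham range while tMCAO_CON 1 and 3 were the highest libraries, and the log2 fold change was 0.63 ± 0.26 (SE, edgeR adjusted p = 0.15). Mcm7 was at 11.7, 13.3 and 10.3 CPM across sham_CON, 10.1, 13.5, 13.8 and 13.6 across sham_DE, 17.1, 13.6, 17.4 and 14.5 across tMCAO_CON, and 18 and 19.3 across tMCAO_DE. All tMCAO_CON values were above those of sham_CON, with a log2 fold change of 0.41 ± 0.14 (SE, edgeR adjusted p = 0.081).

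Pcna, the clamp that holds DNA polymerase on its template, was at 22.4, 21.5 and 22.1 CPM across sham_CON, 22.1, 20.4, 22.3 and 22.7 across sham_DE, 26.9, 24.6, 29.8 and 27.3 across tMCAO_CON, and 30.9 and 23.4 across tMCAO_DE. The sham groups were nearly the same, tMCAO_CON lay above both, and its log2 fold change of 0.30 ± 0.10 (SE) missed the threshold (edgeR adjusted p = 0.075). Rrm2, the regulated subunit of ribonucleotide reductase, was at 1.07, 1.5 and 1.36 CPM across sham_CON, 1.46, 1.73, 1.58 and 1.2 across sham_DE, 1.71, 0.911, 2.71 and 1.26 across tMCAO_CON, and 2.06 and 1.57 across tMCAO_DE. Its groups overlapped in all comparisons, and the largest of its 4 log2 fold changes was 0.32 ± 0.33 (SE, edgeR adjusted p = 0.61). For Rrm1, the thymidylate synthase gene Tyms and the helicase component Cdc45 the log2 fold changes with occlusion were 0.29, 0.47 and 0.29, with edgeR adjusted p-values of 0.11, 0.39 and 0.61.

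Uhrf1 rose by 2.14 ± 0.49 on the log2 scale (SE, edgeR adjusted p = 0.018), and tMCAO_CON 3, at 5.53 CPM, stood well above the other 3 libraries of its group, at 2.32 to 2.52 CPM. This library was also the highest of the group in Mki67, Top2a, Cdk1 and Ccnd1. Top2a had a log2 fold change of 2.04 ± 0.69 (SE) that did not pass (edgeR adjusted p = 0.089), with tMCAO_CON 2 lying within sham_CON, and Mki67 had 1.11 ± 0.54 (0.24). Cyclin B2 had a negative value, -0.73 ± 0.35 (edgeR adjusted p = 0.23).

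Of 29 further replication genes 7 rose (24.1%) and none fell, with a median of 0.31, and of 47 further mitotic genes 4 rose (8.51%) and none fell, with a median of 0.33, where 5.14% of all genes rose. Gins1, Chaf1b and Ndc80 had under 10 counts in every sham_CON library and were tested only through groups where they are higher. Cdt1, which licenses origins together with Cdc6, was at 1.5, 1.97 and 1.19 CPM across sham_CON, 2.16, 2.32, 2.86 and 2.85 across sham_DE, 3.92, 3.88, 4.59 and 3.44 across tMCAO_CON, and 6.98 and 6.13 across tMCAO_DE. Every library outside sham_CON exceeded it, and the rise with occlusion was 1.35 ± 0.20 (SE, log2 scale, edgeR adjusted p = 0.0019). The helicase component Gins1 rose by 1.80 ± 0.29 (0.0030), the primase subunit Prim1 by 0.56 ± 0.12 (0.014), and the chromatin assembly gene Chaf1b, with 4, 0 and 3 counts in sham_CON, also passed (0.0041). Of 13 CDK inhibitors and brakes Cdkn1a (1.91 ± 0.30, edgeR adjusted p = 0.0023) and the stress-induced Gadd45g (1.40 ± 0.22, 0.0023) rose, and of 19 other G1 genes Myc rose (0.73 ± 0.20, 0.043) and the cyclin H gene Ccnh fell (-0.36 ± 0.09, 0.030).

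The calls of Mcm2, Mcm3, Mcm4 and Mcm6 passed with each of the 13 libraries left out in turn, tMCAO_CON 4 with its contradictory label included, with adjusted p-values up to 0.032, and in all 7 other alternatives run. That of Uhrf1 ended without sham_CON 2 or 3 (up to 0.085). That of Cdk1 ended without any library other than tMCAO_CON 2 (up to 0.16 where tested), under limma (0.0739) and with no low-count filter (0.0514). Without sham_DE 1 or tMCAO_CON 3, Cdk1 fell below the filter and was not tested. Of all genes, 870 were called higher and 560 lower by edgeR, 1091 and 901 by DESeq2, and 1522 and 263 by limma, so the split by direction in the background depends on the tool. Macrophage markers summed to 18.1 to 36.5 CPM in tMCAO_CON against 6.65 to 10.1 CPM in sham_CON, with 4 of 9 tested markers higher, and 4 of 7 fibroblast markers rose, whose sum was 67.5 to 78.8 CPM in sham_CON compared with 105 to 138 CPM after occlusion. Of 8 astrocyte markers Gfap, Vim, Aqp4 and Aldh1l1 rose, with Gfap at 51, 91.4 and 63.4 CPM across sham_CON and 667, 790.2, 1012 and 924 across tMCAO_CON, and of 8 endothelial markers 3 rose. Their part in the rise of the helicase genes was not tested.

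After depletion, occlusion moved few of these genes. Comparing tMCAO_DE with sham_DE, 3 of 36 rose and none fell (8.33%), where 12.4% of all genes changed, 6.59% upwards and 5.84% downwards, so the share was near the background. They were Ccnd1, Mcm4 and Mcm7. The medians were 0.30 for the replication genes, 0.05 for the G1 and S entry genes and -0.09 for the mitotic genes, against 0.00 for all genes. Groups did not overlap for 7 genes that were higher and 6 that were lower, against 19.5% and 17.7% of all genes. In edgeR 9 genes were at an unadjusted p below 0.05, among them Ccnd2, Kif11 and Ube2c on the lower side, against 28.1% of all genes, and neither DESeq2 nor limma called a gene lower.

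Cyclin D1 (Ccnd1), which couples growth signals to CDK4, was at 52.5, 37.9 and 44.7 CPM across sham_CON, 36.5, 39.6, 36.7 and 29.7 across sham_DE, 55.3, 55.3, 71.7 and 53.6 across tMCAO_CON, and 49.3 and 50.8 across tMCAO_DE. The sham groups overlapped at 37.9 to 39.6 CPM, both occluded groups were above sham_DE without overlap, and the gene rose by 0.49 ± 0.15 after depletion (SE, log2 scale, edgeR adjusted p = 0.045). Mcm7, whose values are given above, rose by 0.55 ± 0.15 (0.029), and both tMCAO_DE libraries were above all other 11. Mcm4 rose by 0.38 ± 0.11 (0.040). Top2a was lower in both tMCAO_DE libraries than in every sham_DE library, and its log2 fold change was -1.45 ± 0.75 (SE, edgeR adjusted p = 0.23). Kif11 had -0.55 ± 0.24 (0.15) and Ube2c -1.51 ± 0.65 (0.15).

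Of 29 further replication genes Cdt1 (1.36 ± 0.20, edgeR adjusted p = 0.0015) and the dUTPase gene Dut (0.36 ± 0.11, 0.042) rose. These are 6.9% of the list, where 6.59% of all genes rose. Of 47 further mitotic genes 5 rose (10.6%), with Melk first (1.15 ± 0.22, 0.0063), and 2 fell (4.26%, against 5.84% of all genes), the kinetochore motor Cenpe (-1.24 ± 0.27, 0.012) and the microtubule regulator Stmn1 (-0.63 ± 0.18, 0.037). Stmn1 is also abundant in neurons. Of 13 brakes 4 rose (30.8%), with Gadd45g (1.47 ± 0.22, 0.0019) and Cdkn1a (1.80 ± 0.30, 0.0029) first. The tMCAO_DE group has 2 libraries, and without either of them, the lone library being assumed to vary like the other groups, none of the calls of Ccnd1, Mcm4 and Mcm7 passed (adjusted p up to 0.21, 0.18 and 0.19). That of Ccnd1 also ended without sham_CON 3, sham_DE 1, 3 or 4 or tMCAO_CON 1, 2 or 4, and that of Mcm4 without any sham_CON library, sham_DE 1, 2 or 3 or tMCAO_CON 4. Both ended with no low-count filter (0.0531 and 0.0502). Of 8 endothelial markers 5 rose in this comparison, as did Gfap and Vim of 8 astrocyte markers, and their part in it was not tested.

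Depletion in the occluded brain gave calls in both directions, at a share near the background. Comparing tMCAO_DE with tMCAO_CON, 4 of 36 genes rose and 2 fell (16.7%), where 18.6% of all genes changed, 9.36% up and 9.26% down. The genes that rose were the mitotic genes Ccna2, Plk1 and Nusap1 and the cyclin E2 gene Ccne2, and those that fell were Cdk4 and Mcm3. The medians were 0.34 for the mitotic, -0.14 for the replication and -0.18 for the G1 and S entry genes, against -0.01 for all genes. Groups did not overlap for 9 genes that were higher and 7 that were lower, against 22.6% and 22.9% of all genes, so these shares too were near the background.

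Ccna2 rose by 0.88 ± 0.20 (SE, log2 scale, edgeR adjusted p = 0.012), with both tMCAO_DE values, 5.02 and 8.25 CPM, above the tMCAO_CON range of 3.12 to 4.08 CPM. Plk1 rose by 0.75 ± 0.24 (0.043) and Nusap1 by 1.70 ± 0.49 (0.030). These 3 genes thus rose in both depletion comparisons. The comparisons share no library, but they come from 1 fit that estimated the spread of each gene from all 13 libraries. Ccne2, the cyclin that activates CDK2 at the entry to S phase, was at 6.81, 5.8 and 5.93 CPM across sham_CON, 6.76, 8.68, 8.17 and 11 across sham_DE, 7.72, 9.4, 8.59 and 7.86 across tMCAO_CON, and 11.3 and 13.6 across tMCAO_DE. Both tMCAO_DE values were above those of the other 11 libraries, and the log2 fold change was 0.57 ± 0.17 (SE, edgeR adjusted p = 0.033).

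Cdk4, the partner of the D-type cyclins, was at 30.0, 27.6 and 28.2 CPM across sham_CON, 29.7, 27.3, 23.6 and 26.2 across sham_DE, 31.5, 32, 35.1 and 33.2 across tMCAO_CON, and 26.4 and 23.9 across tMCAO_DE. Both tMCAO_DE libraries were below all 4 tMCAO_CON libraries, and the gene fell by 0.39 on the log2 scale (-0.39 ± 0.10, SE, edgeR adjusted p = 0.017). Mcm3, whose 4 highest values were those of tMCAO_CON, fell with a log2 fold change of -1.18 ± 0.35 (SE, edgeR adjusted p = 0.032), and Mcm6 and Mcm2 had -0.41 and -0.32 without passing (0.14 and 0.28). Uhrf1, at 5.42 and 5.72 CPM in tMCAO_DE, had 0.82 ± 0.43 (0.20), and tMCAO_CON 3 was at the same level.

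Of 47 further mitotic genes 5 rose (10.6%, where 9.36% of all genes rose), with Melk (1.45 ± 0.22, edgeR adjusted p = 0.0020) and Kif15 (1.88 ± 0.43, 0.011) first, and Cenpe (-1.41 ± 0.27, 0.0058) and Stmn1 (-0.65 ± 0.18, 0.026) fell. Kif15 had 11, 7, 7 and 7 counts across tMCAO_CON and passed the low-count filter only through depleted libraries, where it is higher. Of 29 replication genes 5 rose (17.2%), with Mcm10 (1.14 ± 0.29, 0.018) first, and Prim1 fell (-0.54 ± 0.14, 0.018). Of 19 other G1 genes 3 rose and 3 fell (15.8% each way, where 9.26% of all genes fell), with Cdc25a (0.54 ± 0.14, 0.020) and Mycn (-1.15 ± 0.32, 0.025) first, and of 13 brakes Cdkn1a (1.30 ± 0.30, 0.012) and Gadd45b rose and Ccng1 (-0.75 ± 0.15, 0.0078) fell. Without tMCAO_DE 2 none of the 36 genes passed in edgeR (6 at an unadjusted p below 0.05), and without tMCAO_DE 1 Ccna2 alone did, the lone library again being assumed to vary like the others. The calls of Ccna2 and Cdk4 passed without each of the 11 other libraries, and their highest adjusted p was 0.24 and 0.17 without a tMCAO_DE library. The call of Mcm3 also ended without tMCAO_CON 1 or 3 (up to 0.22), that of Nusap1 without tMCAO_CON 1, 2 or 3 (up to 0.18), that of Ccne2 without tMCAO_CON 1, 3 or 4 (up to 0.28), and that of Plk1 without tMCAO_CON 1, 2 or 4, sham_CON 3 or sham_DE 3 or 4 (up to 0.28). Under limma those of Ccne2 and Plk1 ended (0.0664 and 0.0519), and with no low-count filter that of Plk1 did (0.0542). Macrophage markers were at 39.4 to 49.9 CPM in tMCAO_DE, and 3 of 9 rose and Lgals3 fell against tMCAO_CON. The gut and pancreas transcripts were at 23.1 to 25.5 CPM in tMCAO_DE and 1.7 to 2.92 CPM in tMCAO_CON. Of 10 oligodendrocyte precursor markers 5 fell. Their part in these differences was not tested.

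**Figure D4:**
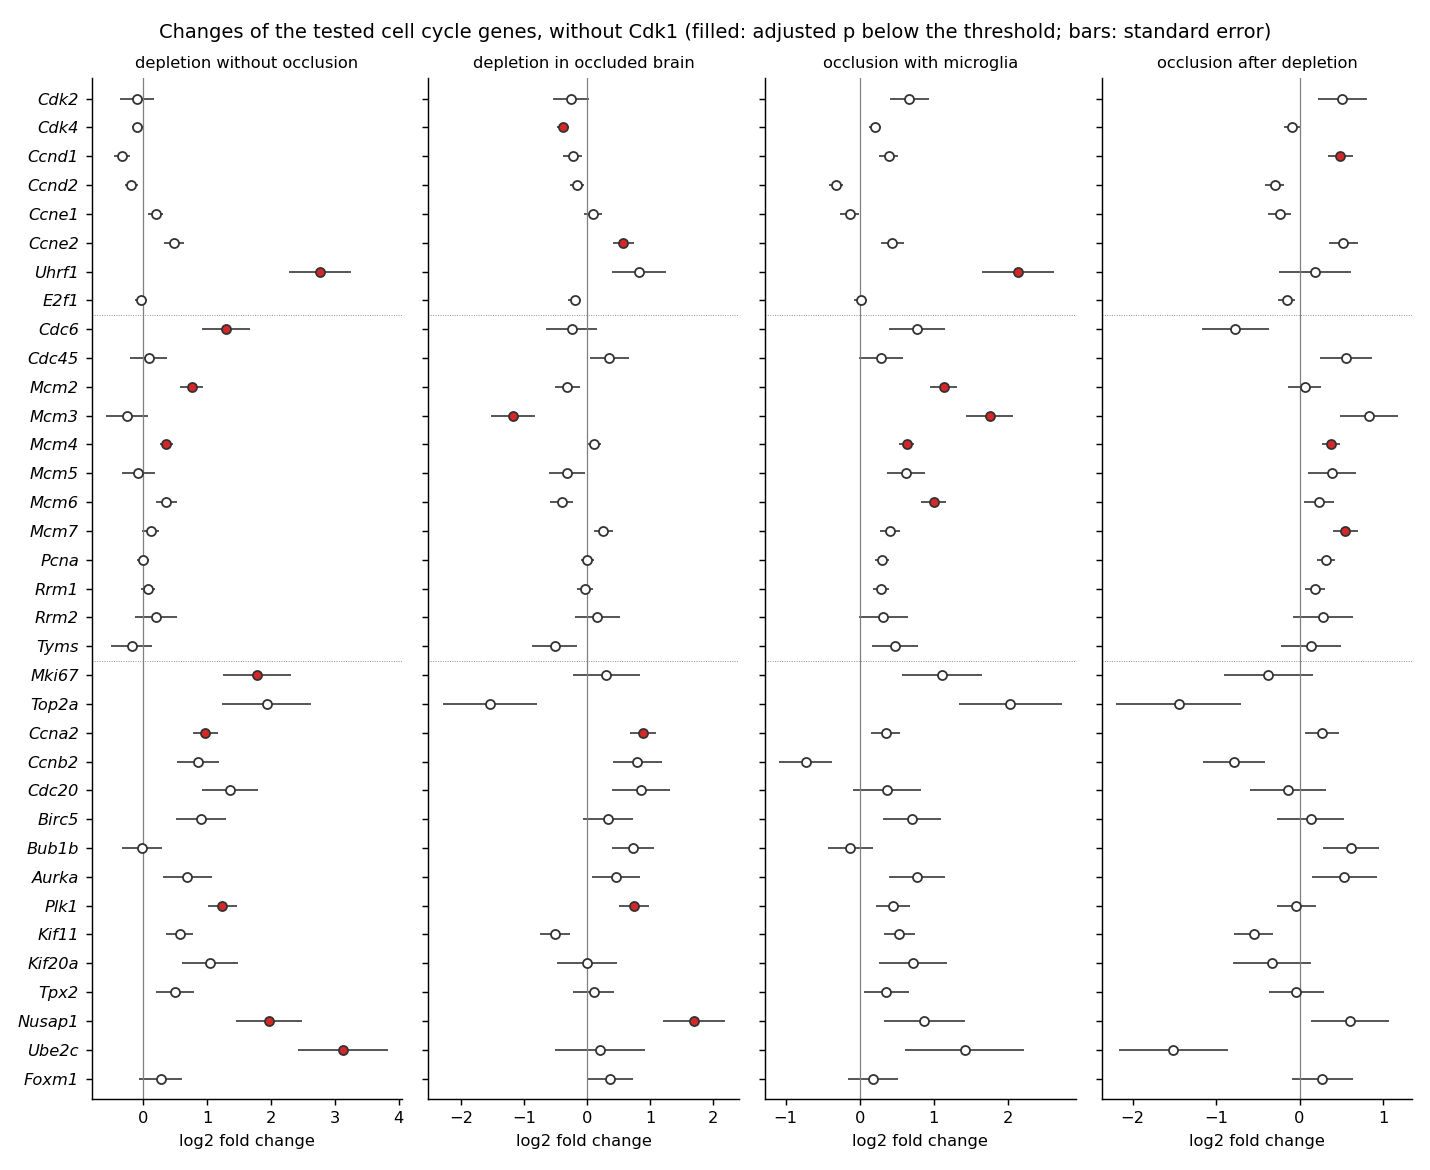
Log2 fold changes with standard errors of the tested genes, Cdk1 left out for its low counts, in the 4 comparisons, with genes grouped by role from G1 at the top to mitosis at the bottom. Filled points passed at an adjusted p below 0.05. In the first panel the filled points lie mostly among the mitotic genes and in the third mostly among the Mcm genes.

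The difference between the occlusion effects with and without microglia was tested as an interaction. None of the 36 genes passed in edgeR (0.0472% of all genes did, 0.0059% with a positive and 0.0413% with a negative value), 9 were at an unadjusted p below 0.05 against 9.72% of all genes, and the smallest adjusted p was 0.23, for Mcm2. Its interaction was -1.07 ± 0.27 (SE, log2 scale), and DESeq2 called it, the only one of the 36 that any of the tools called. All 9 genes with a small unadjusted p, Top2a, Cdk1, Cdk4, Cdc6, Mcm2, Mcm6, Kif11, Ube2c and Uhrf1, had a negative interaction, so each was lower in tMCAO_DE than the separate effects would add to. The median was -0.26 against -0.02 for all genes, and 28 of the 36 values were negative. The 36 values come from the same 13 libraries in 1 fit, so these signs are not separate evidence.

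E2f1, Ccnd2, Cdk2 and Ccne1 passed in none of the comparisons in edgeR. E2f1 was at 18.7, 22.6 and 21.5 CPM across sham_CON, 18.3, 20.6, 21.3 and 21.5 across sham_DE, 20.1, 22.6, 22.1 and 19.5 across tMCAO_CON, and 18.5 and 18.1 across tMCAO_DE. The groups of each comparison overlapped, apart from tMCAO_DE with 2 values just below those of tMCAO_CON, and the log2 fold change there was -0.20 ± 0.11 (SE, edgeR adjusted p = 0.20). Ccnd2 was at 74.3, 73.9 and 87.7 CPM across sham_CON, 66.1, 80.4, 67.8 and 61.8 across sham_DE, 60.3, 61.7, 68.8 and 61.3 across tMCAO_CON, and 54.2 and 58 across tMCAO_DE. It was lower in both occluded groups than in sham_CON without overlap, with log2 fold changes of -0.32 ± 0.09 with microglia (SE, edgeR adjusted p = 0.055) and -0.30 ± 0.11 after depletion (0.091), neither of which passed, although with microglia DESeq2 called it lower and so did edgeR without sham_DE 2 or 4. Cdk2 was at 2.15 ± 0.394 CPM (SD, n = 3) in sham_CON and 3.43 ± 0.866 CPM (SD, n = 4) in tMCAO_CON. For Cdk2 and Ccne1 the smallest values over the comparisons were edgeR adjusted p-values of 0.14 and 0.29.

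Some counts may include reads of a neighbour, since whether counting used strand is not given in the sources used here. In GENCODE M21 (GRCm38), exons of Cdk4 overlap those of Tspan31 on the opposite strand (641 bases), those of Ccna2 overlap Exosc9 (510), those of Ccnd1 overlap LTO1, listed as Oraov1 (1100), those of Ccne2 overlap Ints8 (609), those of Nusap1 overlap Oip5 (172) and those of Mcm7 overlap Ap4m1 (321) and Cops6 (64). Kif20a shares 1271 exonic bases with Cdc23, and Plk1 shares 156 with Gm44985. In the comparisons where these members were called, none of Tspan31, Exosc9, Oraov1, Ints8, Oip5, Ap4m1 and Cops6 passed in edgeR. For Ccna2 in the sham brain, for example, Exosc9 had 0.17 ± 0.09 (SE, log2 scale, edgeR adjusted p = 0.21), and for Cdk4 in the occluded brain Tspan31 had -0.03 ± 0.13 (0.90). Ccnb1, Ccnb2, Pcna and Tyms have named pseudogenes, so their counts are uncertain to that extent.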

How the data were processed

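RNA from 13 mouse brains was sequenced as paired-end TruSeq libraries, per the labels' protocols. The authors deposited 4 tables, 1 per group, holding whole-number counts per gene and library without normalisation, per the file headers. The same deposited tables hold FPKM values, counts scaled by the authors to gene length and library size, which were proportional to the counts. The submitters' processing notes name Cufflinks 2.1.1, Cuffdiff and the build mm10 (GRCm38). Aligner, counter and use of strand are not given in the sources consulted.

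Counts of 29 repeated symbols were summed, 24 names turned into dates were left out, and 16940 of 21056 genes with at least 10 counts (scaled to the median library) in 2 libraries and a total of at least 15 were tested. All 13 libraries entered 1 fit of group means in edgeR 4.0.16 (R 4.3.3) with its quasi-likelihood test, TMM scaling and Benjamini-Hochberg adjustment over all tested genes at 0.05, two-sided. CPM use TMM-adjusted totals. The standard error (SE) is approximate, obtained by dividing the absolute log2 change by the root of edgeR's F statistic, and adjusted p-values printed in brackets are edgeR's. Alternatives were DESeq2 1.42.0, RLE size factors, limma 3.58.1 on log2(FPKM + 0.1) computed from the authors' deposited FPKM, no filter, a stricter filter, a replicate block, each library left out, and sham_CON 2 with sham_DE 3 left out. The fit was tested on simulated data with known changes. Totals were 16239763 to 22080367 counts, and the biological coefficient of variation was 15.2%. Genes near 10 counts carry wide counting error on top of this variation between animals.

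Replicate numbers were not taken as pairs: deviations of same-numbered libraries correlated at -0.064 to 0.106, and those of others at -0.138 to 0.136. Genotype labels vary in a number within the R26 name and were read as 1 genotype. Values per library are given for genes called in any comparison and for Mki67, Top2a, Cdk1, Ccnb1, Ccnd1, Ccnd2, Cdk4, Pcna, Mcm2, Mcm5, Rrm2 and E2f1. From each further gene list at most 4 called genes per comparison, those of smallest p, are named. The members and all lists were chosen with earlier results of these data known. Positions and overlaps come from GENCODE M21, and promoter windows from RefSeq.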

Additional observations from a re-analysis of the deposited data

Results flagged for a closer look

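Within the groups of 4 libraries, 5 of 80 sets of values held 1 library far from the other 3, by Dixon's criterion at the 95% level, which chance alone exceeds in about 1 of 20 sets. Cdk1 in sham_DE 1 was at 0.973 CPM, against 0.318 to 0.399 CPM in the other 3. Mcm7 in the same library was low, at 10.1 CPM against 13.5 to 13.8 CPM. In tMCAO_CON 3, cyclin D1 (Ccnd1) was at 71.7 CPM against 53.6 to 55.3 CPM, cyclin D2 (Ccnd2) at 68.8 CPM against 60.3 to 61.7 CPM, and Uhrf1 at 5.53 CPM against 2.32 to 2.52 CPM. Without sham_DE 1, Cdk1 fell below the low-count filter and was not tested, and the call of Ccnd1 after depletion ended. Without tMCAO_CON 3 the call of Uhrf1 with occlusion still passed.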

How the results depend on the processing

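With sham_CON 2 and sham_DE 3 both left out, 0 of the members and 219 of all genes were called for depletion without occlusion, 1 member was called for occlusion after depletion, and the interaction called 1 gene of all. With the replicate number as a block, although the numbers do not pair the mice, 823 of all genes were called for depletion without occlusion against 1921. In the same blocked fit 1 member and 1341 of all genes were called for occlusion after depletion against 3 and 2106, and 2 genes of all for the interaction against 8, and 7 calls of members were lost: Cdc6 and Mcm4 with depletion in sham brain (adjusted p = 0.0771 and 0.0834), Cdk1 and Uhrf1 with occlusion (0.0595 and 0.0507), Ccnd1 and Mcm7 after depletion (0.0752 and 0.0773) and Plk1 in the occluded brain (0.0692). Without the low-count filter 1 member was called for occlusion after depletion. For the interaction DESeq2 called 1 member and 114 of all genes, and limma 23 of all genes. Other counts of calls, with both directions added up, stayed within 1.5 times under these alternatives, but their split did not. For occlusion with microglia limma called 1522 higher and 263 lower, DESeq2 1091 and 901, and the blocked fit 638 and 320, against 870 and 560. Limma also gave 1350 higher and 791 lower for occlusion after depletion, against 1116 and 990, and 1242 and 1846 for depletion in the occluded brain, against 1586 and 1569.

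Leaving out 1 library at a time gave 3 to 10 called members and 591 to 3725 called genes for depletion without occlusion, 4 to 8 and 564 to 1814 for occlusion with microglia, 0 to 3 and 459 to 2096 for occlusion after depletion, and 0 to 6 and 351 to 3873 for depletion in the occluded brain. The interaction called 0 members and 1 to 15 genes. Signs changed only among values near 0 or with wide error. For depletion without occlusion Pcna was at 0.017 under limma and at -0.030 to 0.023 without 1 library, E2f1 at 0.0054 without the pair and at -0.11 to 0.025 without 1 library, and Mcm5 at -0.20 to 0.085. For occlusion with microglia Rrm2 was at -0.024 to 0.52 and E2f1 at -0.063 to 0.070, and for occlusion after depletion Mki67 was at -0.65 to 0.018 and Mcm2 at -0.036 to 0.16. For depletion in the occluded brain Pcna was at -0.035 under limma and at -0.20 to 0.19 without 1 library, Rrm2 at -0.049 to 0.49, and the median of the members at -0.069 to 0.20. The cause of these changes was not tested. Genes with under 10 counts, and all comparisons with the 2 tMCAO_DE libraries, are limited most by depth and number.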

Other observations

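Of 10 oligodendrocyte precursor markers, 3 fell with depletion in sham brain (Bcas1, Gpr17, Olig1) and 5 in occluded brain (Gpr17, Olig1, Olig2, C1ql1, Cspg4). Pdgfra was called in neither comparison. Of 11 tested neural progenitor and neuroblast markers, Sox4 rose with depletion in the occluded brain, with an edgeR log2 fold change of 0.45 ± 0.13 (SE, adjusted p = 0.033). Sox4 (0.81 ± 0.13, 0.0028) and Nes (1.25 ± 0.34, 0.029) rose with occlusion after depletion. Most of the 11 had negative values, 9 with depletion in the occluded brain and 7 with occlusion after depletion (medians -0.02 and -0.22). With depletion in sham brain 9 of the 11 were negative too, and none passed. How these relate to the mitotic genes was not tested.

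The motif shares of the 40 genes were close to those of the further lists. TTTGAA was found in 29 of the 40 further mitotic genes with a window (72.5%), and an E2F motif in 10 of the 23 further replication genes with a window (43.5%).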
